A study of Mus musculus with 4 samples.

Results

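Ebf1, Pax5, Foxo1 and Pou2af1 are 4 genes that encode regulators of B-lineage cells. They were taken by symbol from a raw count table of 24411 genes in sorted mouse pro-B cells, and all 4 passed the filter on low counts that left 13507 genes for testing. All 4 transcripts fell in cells of mice with floxed Tnpo3, to between 7.52% and 37.2% of the control mean. Pou2af1 fell the most and Foxo1 the least.

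EBF1 is a DNA-binding factor that opens chromatin at B cell genes and turns on Pax5, and PAX5 then keeps B cell genes on and represses genes of other blood lineages. FOXO1 is a forkhead factor that is held out of the nucleus when PI3K and AKT signalling phosphorylates it, and it acts at the recombinase genes Rag1 and Rag2 and at Il7r. POU2AF1, also called OBF-1 or BOB.1, binds no DNA by itself and works as a coactivator of the octamer-binding factors OCT1 and OCT2. In mice, EBF1, PAX5 and FOXO1 are needed for normal early B cell development, whereas POU2AF1 is best known for its part in germinal centre responses.

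Messenger RNA was sequenced from pro-B cells, the stage at which heavy chain genes are rearranged, sorted from bone marrow by surface B220, CD43 and HSA (CD24). Knockout libraries came from 2 C57BL/6 mice of genotype Tnpo3fl/fl mb1Cre (mice 51 and 63), and control libraries from 2 C57BL/6 mice of genotype Tnpo3+/+ mb1Cre (mice 55 and 69). Both genotypes thus carried mb1Cre, a Cre recombinase driven from the Cd79a locus, which acts in B-lineage cells. Tnpo3 encodes transportin 3, a receptor that imports splicing factors and other cargo into the nucleus. Their age is not given in the sources used here. Reads of Xist and Ddx3y placed 1 female and 1 male in each genotype, knockout 63 and control 55 being the females. With n = 2 mice per genotype the tests measure the spread between animals.

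Libraries held 40647384 and 30440627 counts in knockouts 51 and 63, against 32697489 and 26211372 in controls 55 and 69. Tnpo3 was at 79.7 and 68.8 CPM (counts scaled to the size of the library) in knockouts 51 and 63, and at 159 and 148 CPM in controls 55 and 69, so both knockouts were below both controls. Its log2 fold change of -1.05 had an edgeR adjusted p of 0.0108, or 0.0603 without knockout 63. All 13 pro-B markers had counts in both genotypes. Of these 6 fell, or 9 without control 55, and 1 rose, or 0 with either knockout left out or with scaling by total counts and 2 with sex as a block. Their summed level was 4483 to 4932 CPM in the knockouts and 10685 to 11632 CPM in the controls.

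The transcripts start at separate promoters on 4 chromosomes, and the 250 bases before each RefSeq start (GRCm38.p6) are shown because the 4 genes fell together and EBF1, octamer, forkhead and E-box motifs are the ones named for these regulators and their partners. Each is written 5′ to 3′ on the strand of the gene, with the motif match in capitals. The Ebf1 window shown lies inside the gene body annotated by GENCODE M21, which starts at 44617317. That annotation holds 7 transcripts of Ebf1, 20 of Pax5, 1 of Foxo1 and 2 of Pou2af1, and starts outside RefSeq were not searched.
Ebf1, chr11:44617850-44618099, plus strand: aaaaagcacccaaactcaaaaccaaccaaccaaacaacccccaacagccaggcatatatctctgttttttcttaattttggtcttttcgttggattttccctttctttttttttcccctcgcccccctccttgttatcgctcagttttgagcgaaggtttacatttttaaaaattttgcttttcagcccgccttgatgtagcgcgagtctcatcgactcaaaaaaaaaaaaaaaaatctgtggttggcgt
Pax5, chr4:44710695-44710944, minus strand: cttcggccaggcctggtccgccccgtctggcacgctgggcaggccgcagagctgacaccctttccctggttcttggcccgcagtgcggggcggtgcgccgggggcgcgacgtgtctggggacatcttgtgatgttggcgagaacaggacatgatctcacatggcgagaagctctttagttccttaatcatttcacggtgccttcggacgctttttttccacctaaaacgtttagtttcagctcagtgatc
Foxo1, chr3:52268087-52268336, plus strand: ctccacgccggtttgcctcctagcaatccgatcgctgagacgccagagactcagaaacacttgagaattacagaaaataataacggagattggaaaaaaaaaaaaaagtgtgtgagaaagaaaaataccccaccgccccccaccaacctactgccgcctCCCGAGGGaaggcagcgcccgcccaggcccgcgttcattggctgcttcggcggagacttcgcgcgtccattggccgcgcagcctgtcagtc
Pou2af1, chr9:51213440-51213689, plus strand: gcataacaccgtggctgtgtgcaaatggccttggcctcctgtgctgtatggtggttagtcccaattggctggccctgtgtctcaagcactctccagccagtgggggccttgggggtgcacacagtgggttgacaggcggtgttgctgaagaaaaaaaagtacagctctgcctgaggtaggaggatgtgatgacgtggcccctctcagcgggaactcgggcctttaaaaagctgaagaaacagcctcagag
The 5 motifs searched, on both strands, were CCCNNGGG (the core of the EBF1 motif), ATGCAAAT (octamer), GTAAACA (forkhead), CAGGTG and CAGCTG (E-boxes). The only match in these windows, or in a second RefSeq start of Ebf1, was CCCNNGGG at 91 to 84 bases before the Foxo1 start. Among all 32851 RefSeq promoter windows of the same length, 11.8% held CCCNNGGG, 1.60% ATGCAAAT, 3.17% GTAAACA, 17.2% CAGGTG and 13% CAGCTG. The windows of Ebf1 and Pax5 shown were 40% and 58.8% G or C, and those of Foxo1 and Pou2af1 were each 56%, against a median of 52.4% over all windows.

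Ebf1 lies on chromosome 11 from 44617317 to 45008091 (GRCm38, GENCODE M21, plus strand), a gene body of 390775 bases that is mostly intron. It had 157 and 137 CPM in knockouts 51 and 63, against 648 and 757 CPM in controls 55 and 69. Both knockouts lay far below both controls, and the knockout mean was 20.9% of the control mean. The log2 fold change was -2.26 ± 0.18 (SE), with an edgeR adjusted p of 0.00497. The female pair gave -2.24 and the male pair -2.27.

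Pax5 lies on chromosome 4 from 44524757 to 44710487 on the minus strand. It had 80.8 and 54.2 CPM in knockouts 51 and 63, against 184 and 211 CPM in controls 55 and 69. The groups did not overlap, but the knockouts differed more from each other, for their level, than those of any of the other 3 genes. The log2 fold change was -1.55 ± 0.22 (SE), with an edgeR adjusted p of 0.0125, and the female pair gave -1.77 and the male pair -1.38. Of the exon bases of Pax5, 636 are shared with 5730488B01Rik on the opposite strand and 125 with the antisense gene Gm12462. Because the strand setting of the counting is not given in the sources used here, reads over those bases cannot be assigned to a strand.

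Foxo1 lies on chromosome 3 from 52268336 to 52353221 (plus strand). It had 146 and 137 CPM in knockouts 51 and 63, against 375 and 384 CPM in controls 55 and 69. Replicates lay close together in both genotypes and the groups were well apart. The log2 fold change was -1.43 ± 0.14 (SE), with an edgeR adjusted p of 0.00613, with -1.45 for the female pair and -1.40 for the male pair. Foxo1 shares 674 exon bases with the antisense gene Gm20402, with the same limit on strand. Transcript counts do not measure where the FOXO1 protein is or whether it is phosphorylated.

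Pou2af1 lies on chromosome 9 from 51213708 to 51240080 (plus strand) and shares no exon bases with another annotated gene. It had 84.1 and 83.3 CPM in knockouts 51 and 63, against 1224 and 1004 CPM in controls 55 and 69. The control mean was 13.3 times the knockout level by the fitted fold change, a log2 fold change of -3.73 ± 0.20 (SE) with an edgeR adjusted p of 0.00431. By unadjusted p it ranked 9 among the 13507 genes tested. Its share of all counts was 0.00835% and 0.00825% in knockouts 51 and 63, against 0.122% and 0.102% in controls 55 and 69.

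**Figure D1:**
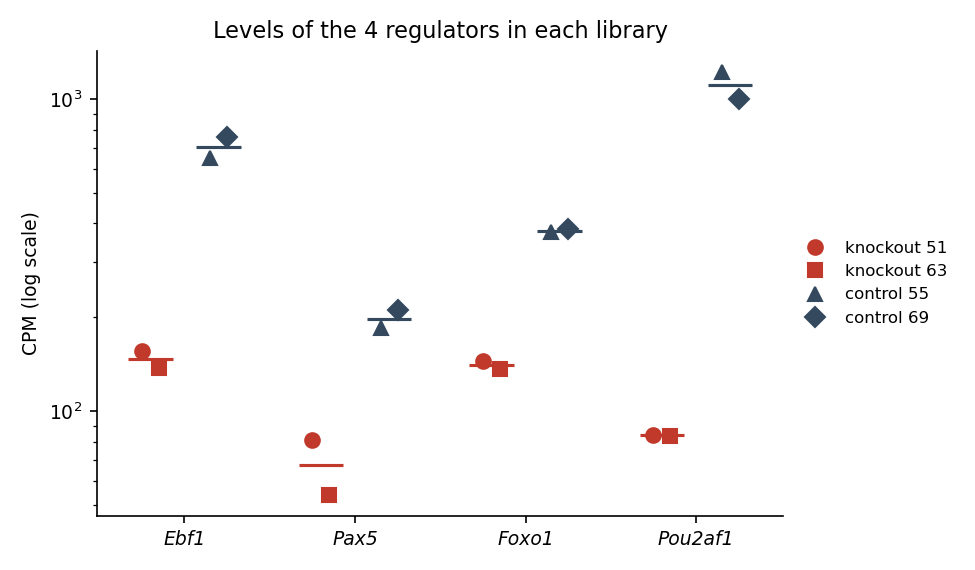
CPM on a log scale of Ebf1, Pax5, Foxo1 and Pou2af1 in each of the 4 libraries, knockouts left of controls, with a bar at the mean of 2 libraries. Each knockout symbol lies below both control symbols of its gene, and the gap is widest for Pou2af1, at 83.7 CPM on average in knockouts and 1114 CPM in controls.

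All 4 of the 4 genes were called lower in the knockout, where 10.9% of the 13507 genes tested were called lower and 22.2% were called in either direction at an adjusted p of 0.05. For all 4, both knockouts were below both controls, a pattern that 34.6% of genes tested showed. The median log2 fold change over all genes tested was -0.02. Of the genes tested, 224 had a log2 fold change at or below that of Pou2af1 and 611 at or below that of Ebf1. The directions and calls held with every alternative scaling, filter, tool and left-out library that was run. In libraries of sorted cells, fewer B-lineage cells and less of these transcripts per cell cannot be told apart.

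**Figure D2:**
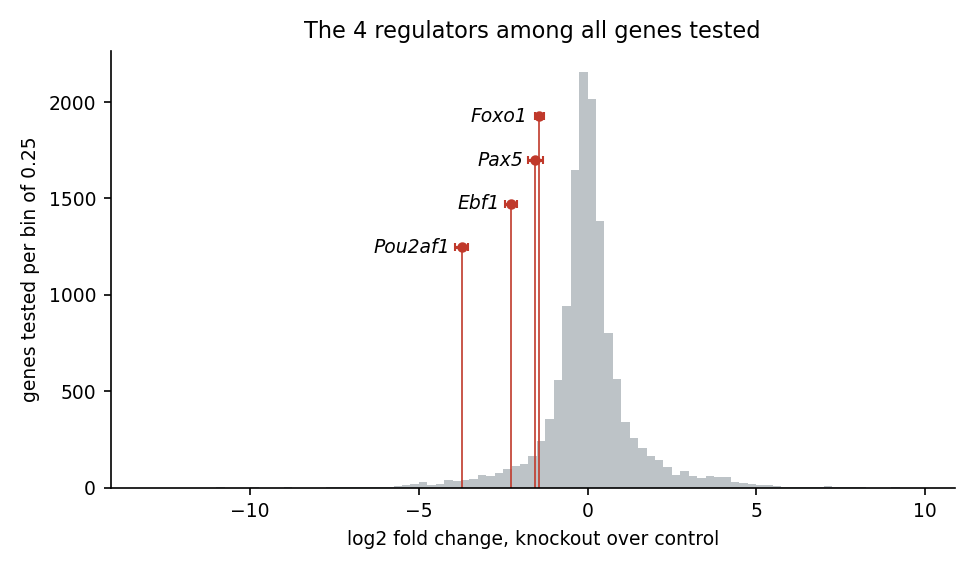
Histogram of the log2 fold changes, knockout over control, of all 13507 genes tested, in bins of 0.25, with the 4 regulators as points with bars of 1 SE (the height of a point has no meaning). Pou2af1 at -3.73 lies furthest to the left, followed by Ebf1 at -2.26, with Pax5 at -1.55 and Foxo1 at -1.43 close to each other.

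Scaled for length, as CPM per kilobase of exon, the order of the 4 genes differed between genotypes. In the knockouts Pou2af1 was at 33.0 and 32.7 CPM per kilobase, Foxo1 at 16.8 and 15.8, Ebf1 at 16.1 and 14.1, and Pax5 at 9.13 and 6.12 in knockouts 51 and 63. In the controls Pou2af1 was at 480 and 394 CPM per kilobase, Ebf1 at 66.4 and 77.6, Foxo1 at 43.3 and 44.3, and Pax5 at 20.8 and 23.8 in controls 55 and 69. The ranges of Foxo1 and Ebf1 overlapped in the knockouts and were apart in the controls. Among 12990 tested genes with a length, Pou2af1 stood at the 87.2 and 86.9 percentiles in the knockouts and at the 99.6 and 99.5 percentiles in the controls.

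Ratios between the 4 transcripts were compared within libraries. The log2 ratio of Foxo1 to Pou2af1, per kilobase, was -0.97 and -1.05 in knockouts 51 and 63, against -3.47 and -3.15 in controls 55 and 69, a difference of 2.30. For Ebf1 to Pou2af1 the ratio was -1.04 and -1.21 in the knockouts and -2.85 and -2.34 in the controls. The ratio of Ebf1 to Foxo1 was -0.07 and -0.17 in the knockouts and 0.62 and 0.81 in the controls. Of the 6 ratios that 4 genes allow, that of Pax5 to Foxo1 was the one whose groups overlapped, at -0.88 and -1.37 in the knockouts and -1.06 and -0.90 in the controls. For the other 5 the exact two-sided permutation test over libraries gave p = 0.333 (0.40 adjusted over the 6 ratios), which is the smallest p that 2 against 2 libraries can give.

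**Figure D3:**
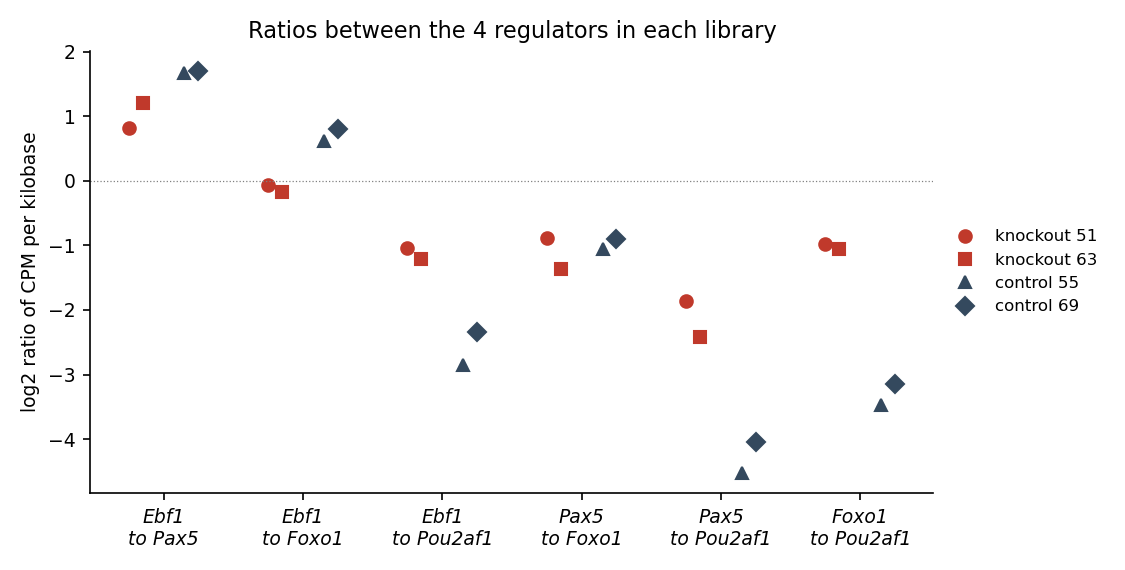
Log2 ratio of CPM per kilobase for each of the 6 pairs of regulators in each of the 4 libraries, knockouts left of controls. The 3 ratios to Pou2af1 lie higher in both knockouts, those of Ebf1 to Pax5 and to Foxo1 lie lower, and that of Pax5 to Foxo1 overlaps between genotypes.

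Markers of other blood cells moved in the same libraries, where 11.3% of all genes tested were higher and 10.9% lower. Of 12 dendritic cell markers 11 rose and 0 fell, with a summed level of 4529 and 5891 CPM in knockouts 51 and 63, against 505 and 155 CPM in controls 55 and 69, and 7 rose without knockout 63. Of 12 NK cell markers 8 rose, with sums of 1166 and 272 CPM in the knockouts and 48.8 and 44.3 CPM in the controls, and with limma-voom 1 was called. Of 9 tested T cell markers 4 rose, with sums of 202 and 130 CPM in the knockouts and 21.0 and 40.2 CPM in the controls. The number that rose went up or down with the library left out, and the call of Cd3g was lost with limma-voom. All 12 granulocyte markers fell, with sums of 252 and 68.8 CPM in the knockouts and 5247 and 4075 CPM in the controls. Of 8 erythroid markers 7 fell, with sums of 3.81 and 8.99 CPM in the knockouts and 89.9 and 68.7 CPM in the controls, and 4 fell without knockout 51. No marker of these lists was at 0 in both libraries of a genotype. The part of these cells in the fall of the 4 regulators was not tested.

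Of 16 factors that act before or with the 4 regulators, 6 fell, 1 rose and 9 did not pass, with a median log2 fold change of -0.48. Over all genes tested, 10.9% were lower and 11.3% higher. Myb, a factor of lymphoid progenitors, was at 338 ± 25.5 CPM in knockouts and 1586 ± 6.94 CPM in controls (SD, n = 2), a log2 fold change of -2.23. Tcf3 encodes the E proteins E12 and E47, which act upstream of Ebf1. It was at 355 ± 97.0 CPM in knockouts and 1110 ± 168 CPM in controls, a log2 fold change of -1.64. Sox4, Ets1, Foxp1 and Spi1, which encodes PU.1, also fell, with log2 fold changes of -2.09, -0.96, -1.28 and -0.59. Without knockout 51 or without knockout 63, Ets1, Foxp1 and Spi1 did not pass, and without control 55 Spi1 did not.

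Bcl11a rose, at 433 ± 126 CPM in knockouts and 192 ± 5.66 CPM in controls, and did not pass without knockout 63 (adjusted p of 0.0756 by edgeR). It is a zinc finger factor needed for early B cells that plasmacytoid dendritic cells also express. Ikzf1, Tcf12, Runx1, Cbfb, Mef2c, Stat5a and Stat5b had log2 fold changes between -0.37 and 0.49 and did not pass. Stat5a, at 0.49, passed with sex as a block (adjusted p of 0.0306 by edgeR) and without control 69 (0.0343), so that 2 genes of the list rose in each of those fits. Erg and Gfi1 did not pass at -1.43 and -1.96. Erg was at 239 ± 145 CPM in the controls, a wide spread, and both passed with DESeq2 (adjusted p of 0.00398 and 0.00131), with sex as a block and without the filter.

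Close relatives of the 4 genes were measured as well. Ebf2 had 0 counts in all libraries, Ebf3 had 0 in the knockouts and 6 over the controls, and Ebf4 had 7 counts over all 4 libraries, so counts of Ebf transcripts were nearly all of Ebf1. Among the other Pax genes only Pax7 passed the filter on low counts, at 0.240 ± 0.270 CPM in knockouts and 0.456 ± 0.472 CPM in controls. Foxo3 was at 42.7 ± 5.04 CPM in knockouts and 42.3 ± 6.40 CPM in controls, a log2 fold change of 0.01, and Foxo4 fell with a log2 fold change of -0.63. Foxo3 was at 6.10 and 5.16 CPM per kilobase in knockouts 51 and 63 and at 4.99 and 6.18 in controls 55 and 69, below Foxo1 in every library.

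Pou2f1 and Pou2f2 encode OCT1 and OCT2, the DNA-binding partners of POU2AF1, and both fell. Pou2f1 was at 46.7 ± 4.37 CPM in knockouts and 88.0 ± 10.9 CPM in controls, a log2 fold change of -0.91, and Pou2f2 was at 31.4 ± 0.413 CPM in knockouts and 71.6 ± 29.9 CPM in controls, a log2 fold change of -1.19. Whether these falls differ from that of Pou2af1, with a log2 fold change of -3.73, was not tested. Both calls were lost with either knockout left out, and that of Pou2f2 (edgeR adjusted p of 0.0451) also without control 55, with limma-voom, with the stricter filter and on the authors' normalized values. Of genes known to respond to POU2AF1 or octamer factors, Cxcr5, a follicle-homing receptor gene, was at 4.26 ± 1.68 CPM in knockouts and 45.1 ± 19.2 CPM in controls. Btk, a kinase of B cell receptor signalling, had a log2 fold change of -0.83 and Spib one of -0.48, which did not pass. Btk did not pass with either knockout left out.

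Of 7 tested antagonists and corepressors, 1 rose and 2 fell, where 11.3% of all genes tested were higher and 10.9% lower. Zfp521, a zinc finger protein known to bind and inhibit EBF1, rose and was at 16.1 ± 5.31 CPM in knockouts and 4.14 ± 0.578 CPM in controls, a log2 fold change of 1.96, which did not pass without knockout 63 (edgeR adjusted p of 0.0624). Tle4, a Groucho corepressor that binds PAX5, fell with a log2 fold change of -0.71, and Id3, an inhibitor of E proteins, with -1.02, and both calls were lost with either knockout left out. Tle1 was at 0.99 with an edgeR adjusted p of 0.0524, just outside the threshold. It passed under 7 of 12 alternatives, sex as a block (0.0382) and DESeq2 (0.00696) among them, so that 2 genes of the list rose with sex as a block. Id2 was at 47.5 ± 33.5 CPM in knockouts and 27.7 ± 16.0 CPM in controls and did not pass. Tle3 had a log2 fold change of 0.05, and Id1 was at 0.479 ± 0.443 CPM in knockouts and 2.35 ± 1.04 CPM in controls, neither past the threshold. Zfp423, a relative of Zfp521, was below the filter on low counts.

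Of 9 genes in the list of FOXO regulators, which also holds the FOXO genes Foxo3 and Foxo4, 3 fell and 0 rose. Over all genes tested, 10.9% were lower and 11.3% higher. Sgk1, a kinase that phosphorylates FOXO proteins, was at 22.3 ± 8.26 CPM in knockouts and 292 ± 57.1 CPM in controls, a log2 fold change of -3.71 ± 0.32 (SE) with an edgeR adjusted p of 0.00525. Foxo4 fell with a log2 fold change of -0.63, and its call was lost with any 1 of knockout 51, knockout 63 or control 55 left out. With the stricter filter the call of Foxo4 was lost as well (edgeR adjusted p of 0.0502). Pik3cd, Pik3r1, Akt1, Akt2 and Inpp5d had log2 fold changes between -0.55 and 0.08 and did not pass. Inpp5d, at -0.55, passed without control 55 (adjusted p of 0.0427 by edgeR).

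Genes that EBF1, PAX5 and FOXO1 are known to activate were mostly lower. Over the 3 lists, with each of 40 genes counted once, 28 fell, 1 rose and 11 did not pass, with a median log2 fold change of -1.64, where 10.9% of all genes tested were lower and 11.3% higher. The lists were chosen with earlier results of these data known. Of 9 EBF1-activated genes 6 fell and 0 rose, and fewer fell with either knockout left out. Vpreb3, which encodes a pre-B cell receptor-associated protein, was at 122 ± 18.3 CPM in knockouts and 741 ± 55.2 CPM in controls, and Cd79a and Cd79b, which encode the signalling chains of the B cell receptor, had log2 fold changes of -1.81 and -2.54. Cd79a carries the Cre in both genotypes. The surrogate light chain genes Vpreb1 and Igll1, classical EBF1 targets, did not pass at log2 fold changes of -1.47 and -0.88, with wide spreads in the controls (526 ± 376 and 658 ± 469 CPM).

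Of 19 PAX5-activated genes 16 fell and 0 rose, with a median of -2.26, and 12 fell with either knockout left out. Bach2, a repressor of plasma cell genes, was at 72.2 ± 8.24 CPM in knockouts and 588 ± 169 CPM in controls, a log2 fold change of -3.03, and Plekha2 had one of -2.07. Cd79a is in this list as in that of EBF1. Of 16 FOXO1-activated genes 10 fell and 1 rose, with a median of -1.01, and 6 fell with either knockout left out and 7 without control 55. Irs2, Ccng2 and Cdkn1b, genes of insulin signalling and cell cycle arrest, fell with log2 fold changes of -2.20, -1.47 and -1.42.

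Genes that PAX5 is known to repress were mostly higher. Of 14 such genes 10 rose and 0 fell, and the median over the list was 1.75 on the log2 scale. Among all genes tested, 11.3% were higher and 10.9% lower. Flt3 encodes a receptor of early progenitors that is shut off at B-lineage commitment. It was at 458 ± 117 CPM in knockouts and 33.5 ± 8.96 CPM in controls, a log2 fold change of 3.77. Ccr2, a chemokine receptor gene, was at 91.8 ± 18.5 CPM in knockouts and 9.31 ± 2.91 CPM in controls, and Fcer1g and Itgal had log2 fold changes of 2.84 and 2.04. Dendritic cells also express these 4 genes, Flt3 is in the dendritic marker list as well, and the summed level of that list was 4529 to 5891 CPM in the knockouts and 155 to 505 CPM in the controls. The part of dendritic cells in this rise was not tested.

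**Figure D4:**
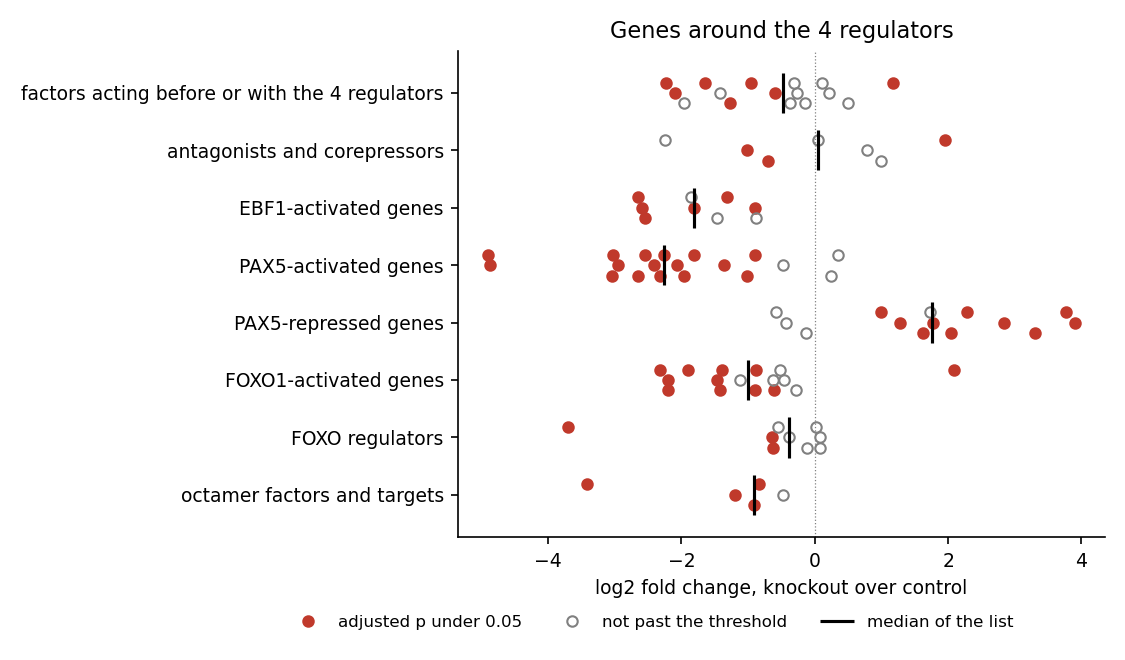
Log2 fold change, knockout over control, of each tested gene in 8 lists around the 4 regulators, filled where the edgeR adjusted p was under 0.05, with a bar at the median of each list. The lists of genes activated by EBF1, PAX5 and FOXO1 have medians of -1.81, -2.26 and -1.01, and the list of PAX5-repressed genes has one of 1.75.

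The genes with profiles most like each regulator over the 4 libraries were found by the Euclidean distance between log2 CPM values centred on each gene's mean, among 9136 genes. For Ebf1 they were Irs2, Myb and Cd1d1, at distances of 0.13 to 0.16. For Pax5 they were Kif18b, Akr1b10 and Tcf3, for Foxo1 Klhl6, Mdm1 and Neil3, and for Pou2af1 Cd177, Mgst1 and Eps8. The distances for Pou2af1, 0.28 to 0.31, were larger than those of the other 3. Of the other regulators, the closest to Pax5 was Foxo1, which ranked 65 in that order. With 4 libraries in 2 groups, such likeness mainly reflects the size of the difference between genotypes.

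The nearest tested gene on each side of each regulator, taken by position alone, was compared as well. Of these 8 neighbours 1 fell, 0 rose and 7 did not pass, where 10.9% of all genes tested were lower and 11.3% higher. Rnf145, 51.8 kilobases from Ebf1, fell with a log2 fold change of -0.78, at 69.1 ± 8.05 CPM in knockouts and 119 ± 14.0 CPM in controls, a call lost with any 1 of knockout 51, knockout 63 or control 55 left out. Zcchc7 lies 45.4 kilobases from Pax5 and was at 77.9 ± 8.94 CPM in knockouts and 73.8 ± 12.6 CPM in controls. Melk on the other side of Pax5 had a log2 fold change of -0.43, and Maml3 and Cog6 beside Foxo1 had -0.25 and -0.26. Layn and 1810046K07Rik beside Pou2af1, and Gm12159 beside Ebf1, had means of at most 3.96 CPM in either genotype.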

How the data were processed

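The authors deposited raw counts per gene symbol for 4 libraries. They also deposited normalized signal, each value being the count times 1 factor per library, used in 1 alternative (13001 of its 13021 rows match a symbol of the count table). Per the labels' protocols, total RNA was turned into libraries with a NEBNext low input kit. Per the submitters' processing notes, the tools were DESeq2, featureCounts, Subread 2.0.0, STAR 2.7.4a, deepTools 3.3.2 and SAMtools 1.10, with GRCm38 and mm10. What annotation and strand setting were used is not given in the sources used here.

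Counts were filtered with filterByExpr (minimum count 10, minimum total 15), scaled by TMM and tested with edgeR 4.0.16 (glmQLFit, glmQLFTest, R 4.3.3) on all 4 libraries with genotype as the 1 term. The Benjamini-Hochberg adjustment ran over the 13507 genes tested, with a threshold of 0.05. The procedure was tested on simulated data. CPM use TMM-scaled totals; log2 CPM for profiles use a prior count of 2; SE is the log2 fold change over the square root of F. A count of 3 in a library was 0.0743 to 0.113 CPM, and with no molecular identifiers described such limits cover counting error only. Exon lengths, positions and overlaps are from GENCODE M21 (GRCm38), and promoters from RefSeq (GRCm38.p6), where all 4 genes were found. Replicate counts differed far beyond sampling noise (mean chi-square per gene of 61.0 between knockouts and 84.5 between controls).

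The members and lists were chosen with earlier results of these data known. Besides the 4 regulators and Tnpo3, the text names up to 4 genes per list with the lowest adjusted p. It also names any member of the lists of factors, antagonists, FOXO regulators, octamer genes and relatives. The nearest tested genes are named, as are the 3 genes with the most similar profile (mean log2 CPM of at least 3, clone-named genes left out). Vpreb1 and Igll1 were named after their values were seen. Alternatives were scaling by total counts or DESeq2 size factors, testing with limma-voom (limma 3.58.1) or DESeq2 1.42.0, limma on the authors' normalized values (log2 after adding 1), dropping the filter or asking for a mean of 50 counts and 1 CPM in 2 libraries, sex as a block, and each library left out. Leaving out each library for the ratios between regulators was added after the data had been seen. A planned comparison of the 4 regulators with other B-lineage transcripts is not reported here.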

Additional observations from a re-analysis of the deposited data

Results flagged for a closer look

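By Xist and Ddx3y, each sex held 1 knockout and 1 control mouse. For 8 named genes, none of them past the threshold, the log2 ratio of knockout to control had opposite signs in the 2 sexes; with 1 pair per sex the difference was not tested. Pax7 was at 1.82 in females and -3.99 in males, at levels under 1 CPM. Id2 was at -0.71 in females and 2.12 in males, where the male knockout, 51, also had the higher NK cell marker sum (1166 CPM, against 272 CPM in knockout 63). Mef2c was at 0.44 in females and -0.076 in males, Tle3 at 0.33 and -0.14, Pik3r1 at -0.071 and 0.25, and Foxo3 at 0.049 and -0.019. Of the neighbouring genes, Maml3 was at 0.47 in females and -0.90 in males and Layn at 0.51 and -1.10. Ebf1, Pax5, Foxo1 and Pou2af1 were lower in the knockout in both sexes.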

How the results depend on the processing

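Each of the 4 regulators kept its direction and passed the threshold under all 12 alternatives, with log2 fold changes of -2.35 to -2.14 for Ebf1, -1.87 to -1.29 for Pax5, -1.47 to -1.38 for Foxo1 and -3.87 to -3.55 for Pou2af1, and a highest adjusted p of 0.0304, that of Pax5. With a library left out, 747 to 1649 genes were called higher and 530 to 1580 lower, against 1524 and 1468 with all libraries; the low ends came without knockout 63, and without knockout 51 they were 904 and 712. Leaving 1 library of a genotype assumes that it varies like the others.

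With a library left out the difference between genotypes in the Pax5 to Foxo1 ratio was -0.39 to 0.10, against -0.15 with all libraries. The cause was not tested.

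Of 90 other genes that the naming rule takes, 18 of 1074 alternative values reversed, none of a gene past the threshold. With a library left out the ranges were -3.07 to 0.90 for Pax7, -0.38 to 0.18 for Tcf12, -0.086 to 0.46 for Mef2c, -0.22 to 1.57 for Id2, -0.23 to 0.46 for Tle3, -0.049 to 0.26 for Pik3r1, -0.11 to 0.18 for Foxo3, -0.94 to 0.23 for Spib, -3.18 to 0.034 for Gm12159, -0.089 to 0.29 for Zcchc7, -0.56 to 0.20 for Maml3 and -1.31 to 0.81 for Layn. With total counts Foxo3 was at -0.012. Of the rest, 989 kept their call, 41 lost it and 26 gained it. Mouse numbers do not pair the genotypes; with sex as a block, a pairing read from the data, 2137 genes were called higher and 2186 lower.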
